A study of Mus musculus with 12 samples.

Results

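The 10 genes described here carry fatty acids into the cell and oxidise them in mitochondria: the uptake genes Cd36 and Fabp4, the carnitine shuttle genes Cpt1a, Slc25a20 and Cpt2, the acyl-CoA dehydrogenase genes Acadvl, Acadl and Acadm, and the trifunctional protein genes Hadha and Hadhb. They were taken by symbol from the GENCODE M21 annotation, 1 Ensembl identifier each, out of 52636 identifiers in the count files. All 10 passed the expression filter, which kept 21440 genes. RNA was sequenced from lymphatic endothelial cells (LECs) sorted from lungs of Prox1-EGFP mice, in which an EGFP transgene under Prox1 regulatory sequence marks these cells. Cells were sorted as live, lineage negative, EPCAM negative, CD31 positive and GFP positive. All groups carried the reporter, and no other allele is given.

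Whole-body cigarette smoke (CS) began at 6 weeks of age and lasted 8 weeks (acute) or 24 weeks or more (chronic), and controls were age-matched mice in room air (RA). In the age field of the labels, acute samples read 8wk and chronic samples Aged. There were 2 acute RA libraries (F and M), 2 acute CS libraries (F and M), 3 chronic RA libraries (F, M1 and M2) and 5 chronic CS libraries (F, M1, M2, M3 and M4), named by sex and number in the labels. An acute library pooled 2 to 5 mice of 1 condition and a chronic library did not pool mice, so pooling and length of exposure cannot be told apart. Total counts were between 45237229 and 56998590 in the acute libraries, 32858543 and 36499108 in chronic RA, 18821438 and 22885446 in chronic CS F, M1 and M2, and 45436986 and 47494020 in chronic CS M3 and M4. Levels are counts per 1000000 counts of a library (CPM), with library totals corrected by TMM factors. Differences were tested with the quasi-likelihood test of edgeR, p-values were adjusted by Benjamini-Hochberg across every gene tested, and a gene was called at an adjusted p under 0.05.

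The libraries also held RNA of other cells. The summed level of 8 lymphatic endothelial markers lay between 14901 and 22931 CPM in the RA and chronic CS libraries, and at 6485 CPM in acute CS F and 9822 CPM in acute CS M. Prox1 itself was lower after acute CS (log2 fold change -1.03, adjusted p = 0.00797 from edgeR), as were Flt4 and Nrp2, and the other 5 lymphatic markers were not called. Of all 21440 genes tested, 155 were called lower after acute CS. Of 12 blood endothelial markers, 10 were called higher after acute CS, and of 8 leukocyte markers, 7, where 2.75% of all genes were called higher. The 11 alveolar macrophage markers summed to 2179 and 2095 CPM in acute CS F and M, against 66.8 to 125 CPM in acute RA, and 3 of them were called higher. Of 10 mesenchymal markers, 6 were called higher after acute CS, with sums of 893 and 1292 CPM in acute CS F and M against 323 to 355 CPM in acute RA. The 9 alveolar epithelial markers summed to 6653 CPM in acute CS F and 229 CPM in acute CS M, against 784 to 1100 CPM in acute RA, and none was called. After chronic CS edgeR called none of these markers, and 0 of all 21440 genes tested. Yet 8 of the 9 alveolar epithelial and 7 of the 10 mesenchymal markers were higher in all chronic CS than in all chronic RA libraries. The share of all genes apart and higher was 3.92%. Epithelial sums were 961 to 4813 CPM against 257 to 492 CPM in chronic RA, and mesenchymal sums 325 to 603 CPM against 174 to 229 CPM. In bulk RNA, fewer cells of a type and less RNA per cell cannot be told apart.

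As background, a long-chain fatty acid crosses the plasma membrane with the help of CD36, a scavenger receptor, and is carried through the cytosol by binding proteins such as FABP4. CPT1A on the outer mitochondrial membrane, the rate-limiting step, joins the acyl group to carnitine, the carrier encoded by Slc25a20 exchanges it across the inner membrane, and CPT2 returns it to coenzyme A. The dehydrogenases VLCAD, LCAD and MCAD (Acadvl, Acadl and Acadm) and the trifunctional protein (Hadha and Hadhb) then shorten the chain. PROX1, which sets lymphatic identity, is known to raise CPT1A and fatty acid oxidation in LECs. CD36 and FABP4 are also abundant in capillary blood endothelium and in lung macrophages, and FABP4 in adipocytes.

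Stretches of mouse sequence before transcript starts are given because they belong to the uptake gene that changed, the gene of the rate-limiting step, and the pair that shares a start region. Windows of RefSeq promoters (GRCm38.p6) were matched for 9 of the 10 genes by symbol, and Fabp4 was not matched. Capitals mark matches, on either strand, to AGGTCA, the nuclear receptor half-site, to GGGCGG, the GC box, to CCAAT, or to the TATA box letters TATAA. Each stretch is printed 5′ to 3′ on the strand of its gene, the shared one on the strand of Hadhb, and no annotated exon lies inside. The Cd36 and Cpt1a stretches lie within the GENCODE bounds of their genes, which hold transcripts that start further upstream.
Cd36, 250 bases before the RefSeq start, chr5:17835897-17836146, minus strand: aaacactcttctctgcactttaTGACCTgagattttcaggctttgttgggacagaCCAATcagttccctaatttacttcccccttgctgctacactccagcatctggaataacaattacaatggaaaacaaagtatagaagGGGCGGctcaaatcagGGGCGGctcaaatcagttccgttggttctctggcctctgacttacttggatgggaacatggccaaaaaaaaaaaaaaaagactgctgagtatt
Cpt1a, 234 bases before the first exon in the window, chr19:3323051-3323284, plus strand: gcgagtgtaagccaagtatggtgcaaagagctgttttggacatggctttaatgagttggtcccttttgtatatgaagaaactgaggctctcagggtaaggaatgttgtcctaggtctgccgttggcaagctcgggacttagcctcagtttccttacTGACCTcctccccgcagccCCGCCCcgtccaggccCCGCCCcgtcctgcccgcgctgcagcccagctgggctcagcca
Hadha and Hadhb, the 85 bases between their annotated starts, chr5:30155163-30155247, plus strand: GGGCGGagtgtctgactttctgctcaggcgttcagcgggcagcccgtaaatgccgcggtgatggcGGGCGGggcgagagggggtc

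The Cd36 stretch held 1 half-site, 1 CCAAT and 2 GC boxes, and the Cpt1a stretch held 1 half-site and 2 GC boxes. The region between Hadha and Hadhb held 2 GC boxes and no half-site. In the 250 bases before the start, a half-site was found for 4 of the 9 genes (Cd36, Cpt1a, Acadvl and Acadm), against 13.8% of 27025 such windows in the mouse table. A GC box was found for 7 of the 9 genes and in 32.9% of windows, a CCAAT for 2 and in 34.5%, and TATAA for none, against 23.5%. The RefSeq starts of Hadha and Hadhb have 272 bases between them. Their windows are therefore mostly the same DNA, and the 9 windows are not separate regions. These are matches of letters and say nothing about binding.

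Cd36 (ENSMUSG00000002944, GRCm38 chromosome 5, 17781690 to 17888801, minus strand) was the 1 member called in any comparison, and it was higher after acute CS. It was counted at 248 and 251 CPM in acute RA F and M and at 2071 and 956 CPM in acute CS F and M. It was counted at 288, 156 and 223 CPM in chronic RA F, M1 and M2, and at 232, 235, 455, 283 and 248 CPM in chronic CS F, M1, M2, M3 and M4. Both acute CS libraries lay above every other library, and the female library was the higher of the pair. The acute log2 fold change was 2.60 (standard error 0.43, 95% interval 1.67 to 3.54, adjusted p = 0.00909 from edgeR), a 6.07-fold difference. With only the 4 acute libraries in the fit the log2 fold change was 2.59 and the call was lost (adjusted p = 0.0848), as it was without acute CS F (1.94, adjusted p = 0.0601), without acute RA F (2.59, adjusted p = 0.0985) and without acute RA M (2.58, adjusted p = 0.111).

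After chronic CS the log2 fold change of Cd36 was 0.38 (95% interval -0.27 to 1.04, adjusted p = 0.662 from edgeR), and the groups overlapped. Chronic CS M2 was the highest of its group, and without it the value was 0.17. The acute effect exceeded the chronic effect by 2.22 on the log2 scale (95% interval 1.11 to 3.32), with an unadjusted p = 0.000995 and an adjusted p = 0.0912 from edgeR. The adjusted p for that difference was 0.0387 without chronic CS M2, 0.0308 without acute CS M and 0.332 without acute CS F.

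Fabp4 (ENSMUSG00000062515, chromosome 3, 10204088 to 10208576, minus strand), the cytosolic carrier, was counted at 72.1 and 82.9 CPM in acute RA F and M and at 86.8 and 261 CPM in acute CS F and M. It was counted at 37.2, 43.1 and 22.7 CPM in chronic RA F, M1 and M2, and at 36.1, 67.8, 82.9, 65.9 and 47.1 CPM in chronic CS F, M1, M2, M3 and M4. Acute CS M stood far above the rest, and acute CS F lay just above acute RA. The 2 uptake genes were thus highest in different acute CS libraries, Cd36 in the female and Fabp4 in the male. The log2 fold change of Fabp4 was 1.16 after acute CS (95% interval 0.09 to 2.24, adjusted p = 0.274 from edgeR) and 0.80 after chronic CS (95% interval -0.0004 to 1.61, adjusted p = 0.458). Without acute CS M the acute value was 0.16, and without acute CS F it was 1.75.

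**Figure D1:**
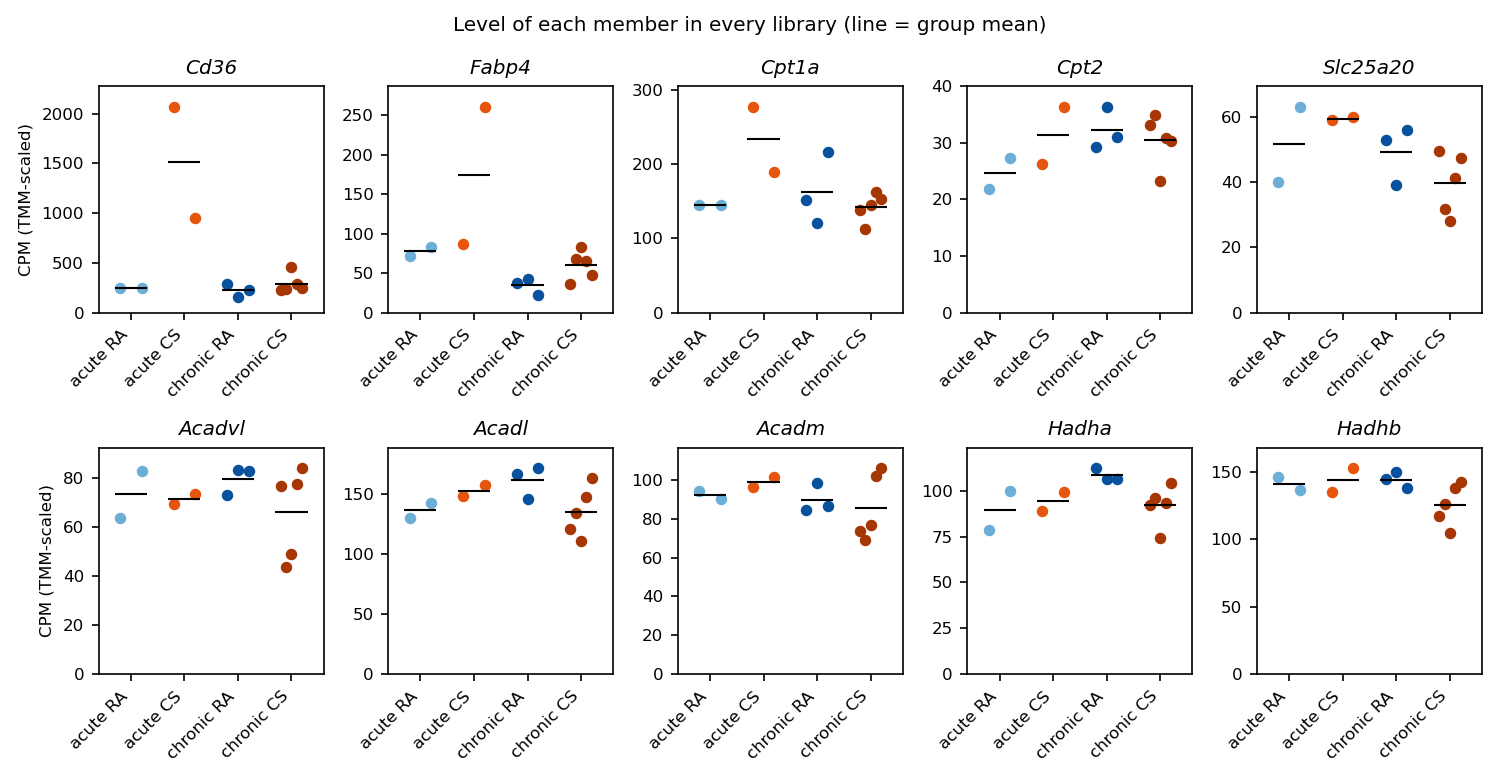
Level of each of the 10 genes in CPM (vertical axes, from 0) in the 12 libraries, with 1 point per library, libraries in label order within a group, and a line at the group mean. Cd36 was at 956 and 2071 CPM in acute CS and at no more than 455 CPM in the other libraries, while CS and RA overlapped in both comparisons for Cpt2, Slc25a20, Acadvl and Hadhb.

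Blood endothelial, macrophage, leukocyte and mesenchymal markers were higher in sum in both acute CS libraries than in acute RA, as Cd36 was, while Fabp4 in acute CS F lay close to acute RA. The 12 blood endothelial markers summed to 8985 and 7136 CPM in acute CS F and M and to between 2816 and 3650 CPM in the other 10 libraries. Plvap and Emcn, which the RA LEC libraries also held at high levels, made up most of that sum in RA. Without them, a choice made after the values were seen, the other 10 markers summed to 473 and 353 CPM in acute RA F and M and to 6041 and 3791 CPM in acute CS F and M, the same order of libraries as Cd36 in acute CS and the opposite of Fabp4, which was higher in the male library. Mesenchymal sums were higher in acute CS M, as Fabp4 was, and alveolar epithelial sums were higher in acute CS F, as Cd36 was. The 6 cardiac muscle markers summed to 70.2 and 265 CPM in acute CS F and M and to at most 121 CPM elsewhere. The 5 erythroid markers summed to 10.6 and 697 CPM in acute CS F and M and to at most 432 CPM elsewhere. Both of these lists were thus highest in acute CS M, as Fabp4 was, and none of their markers was called. The 8 leukocyte markers summed to 1884 and 1383 CPM in acute CS F and M, against 235 to 241 CPM in acute RA, and so were also higher in the female library. The 10 blood endothelial markers summed to 463, 379 and 398 CPM in chronic RA F, M1 and M2 and to 524, 656, 1348, 819 and 623 CPM in chronic CS F, M1, M2, M3 and M4. Chronic CS M2 was thus highest of its group for Cd36, for Fabp4 and for these markers, and also for leukocyte (382 CPM) and mesenchymal markers (603 CPM). Macrophage markers in chronic CS were at 70.2, 92.8, 334, 421 and 141 CPM in the same order, with M3 highest. Among the markers, Kit was at 571 CPM in acute CS F and 194 CPM in acute CS M, and Car4 at 669.9 and 292 CPM, while Vwf was at 1075 and 1829 CPM and so higher in the male library. The 6 adipocyte markers summed to 0.794 and 1.34 CPM in acute RA F and M and to 2.32 and 1.95 CPM in acute CS F and M, and to at most 7.27 CPM in any library (chronic CS M2). Of the 3 that passed the filter, 2 were higher in both acute CS than in both acute RA libraries, and none was called. Lep was at 0 in all 12, and Adipoq, which defines the type, was at 0 except for 2 counts in acute CS M. The part of the other cell types in the levels of Cd36 and Fabp4 was not tested.

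**Figure D2:**
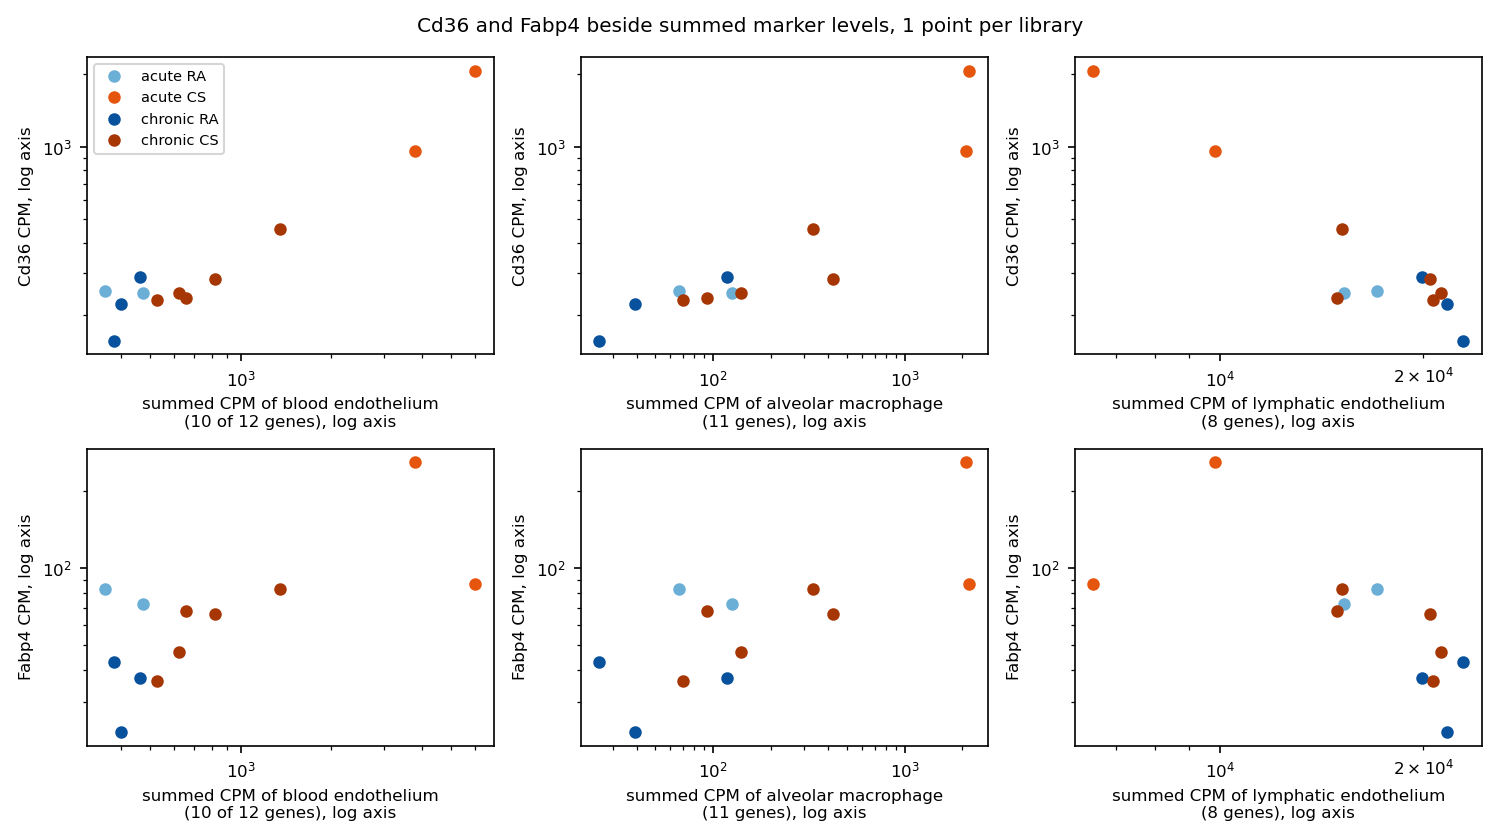
CPM of Cd36 (upper row) and Fabp4 (lower row) against the summed CPM of marker lists of blood endothelium (10 of 12 genes, without Plvap and Emcn), alveolar macrophage and lymphatic endothelium, on log axes, with 1 point per library coloured by group. The 2 acute CS libraries sit apart on each horizontal axis, at 3791 and 6041 CPM for blood endothelium against at most 1348 CPM elsewhere.

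Cpt1a (ENSMUSG00000024900, chromosome 19, 3322334 to 3385733, plus strand), which sets the pace of entry into mitochondria, was counted at 144 CPM in both acute RA libraries and at 277 and 189 CPM in acute CS F and M. It was counted at 152, 120.5 and 216 CPM in chronic RA F, M1 and M2, and at 138, 112, 144, 162 and 153 CPM in chronic CS F, M1, M2, M3 and M4. The acute groups did not overlap, yet acute CS M lay below chronic RA M2. The acute log2 fold change was 0.69 (95% interval 0.11 to 1.27) with an unadjusted p = 0.0238 and an adjusted p = 0.220 from edgeR, and without acute CS F it was 0.39. The chronic log2 fold change was -0.20 (95% interval -0.62 to 0.22, adjusted p = 0.738), and the acute effect exceeded the chronic effect by 0.89 (95% interval 0.17 to 1.61, adjusted p = 0.303). Prox1 lay at 1042 CPM in acute CS F, where Cpt1a was highest, and at 1262 CPM in acute CS M, against 2239 and 2476 CPM in acute RA F and M. Blood endothelial, leukocyte and alveolar epithelial marker sums were also higher in acute CS F than in acute CS M. Mesenchymal, cardiac muscle and erythroid sums were lower in acute CS F than in acute CS M. The part of these cells in the level of Cpt1a was not tested.

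The other shuttle genes differed less. Slc25a20 (ENSMUSG00000032602, chromosome 9, 108662088 to 108684641, plus strand) was counted at 40.0 and 63.2 CPM in acute RA F and M and at 59.1 and 60.0 CPM in acute CS F and M. It was counted at 52.8, 39.1 and 55.9 CPM in chronic RA F, M1 and M2, and at 49.5, 31.9, 28.0, 41.3 and 47.6 CPM in chronic CS F, M1, M2, M3 and M4. The 2 acute RA libraries alone spanned the acute CS values. Cpt2 (ENSMUSG00000028607, chromosome 4, 107903981 to 107923610, minus strand), the lowest member by CPM, lay between 21.8 and 36.4 CPM in all 12 libraries, and its CS libraries overlapped with RA in the acute and in the chronic comparison. Log2 fold changes after acute CS were 0.21 for Slc25a20 and 0.35 for Cpt2, and after chronic CS -0.31 and -0.08, all with adjusted p of 0.563 or more from edgeR.

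No dehydrogenase gene was called after acute or chronic CS. Acadl (ENSMUSG00000026003, chromosome 1, 66830839 to 66863277, minus strand) was at 129.7 and 143 CPM in acute RA F and M, at 148 and 157 CPM in acute CS F and M, at 167, 146 and 171 CPM in chronic RA F, M1 and M2, and at 121, 134, 110.3, 147 and 163 CPM in chronic CS F, M1, M2, M3 and M4. Acadm (ENSMUSG00000062908, chromosome 3, 153922357 to 153944632, minus strand) was at 94.1 and 90.0 CPM in acute RA, at 96.2 and 101 CPM in acute CS, at 84.3, 98.5 and 86.5 CPM in chronic RA and at 73.5, 68.9, 76.6, 102 and 106 CPM in chronic CS, in the same order of libraries. For Acadm, chronic CS M3 and M4 lay above all chronic RA libraries and chronic CS F, M1 and M2 below them.

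Acadvl (ENSMUSG00000018574, chromosome 11, 70010183 to 70015411, minus strand) was at 63.7 and 82.7 CPM in acute RA, at 69.3 and 73.3 CPM in acute CS, at 73.2, 83.0 and 82.6 CPM in chronic RA and at 76.5, 43.8, 48.8, 77.5 and 83.9 CPM in chronic CS, in that order. Chronic CS M1 and M2 lay below every other library, and the other 3 among the RA values or above them. Of its annotated exon bases, 42.9% are shared with exons of Dvl2 on the opposite strand, and no strand setting is stated for the counts, so its level is uncertain.

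Hadha (ENSMUSG00000025745, chromosome 5, 30118304 to 30155162, minus strand) and Hadhb (ENSMUSG00000059447, chromosome 5, 30155248 to 30184593, plus strand) encode the alpha and beta subunits of the trifunctional protein and start head to head on either side of the 85 bases printed above. Hadha was at 78.4 and 100.04 CPM in acute RA F and M, at 89.1 and 99.5 CPM in acute CS F and M, at 112, 106 and 107 CPM in chronic RA F, M1 and M2, and at 92.1, 96.2, 74.5, 93.4 and 104 CPM in chronic CS F, M1, M2, M3 and M4. Hadhb was at 146 and 137 CPM in acute RA, at 135 and 153 CPM in acute CS, at 144, 150.2 and 138 CPM in chronic RA and at 117, 126, 105, 138 and 143 CPM in chronic CS, in the same order. All 5 chronic CS libraries lay below all 3 chronic RA libraries for Hadha, and not for Hadhb. The chronic log2 fold change was -0.24 for Hadha (95% interval -0.51 to 0.03, adjusted p = 0.508 from edgeR) and -0.20 for Hadhb (95% interval -0.44 to 0.05, adjusted p = 0.537). The exact two-sided permutation test of Hadha gave p = 0.0357 without adjustment, the smallest that 5 against 3 libraries allow. Groups that do not overlap fix that value, so it adds nothing to the separation. Of all genes tested, 5.49% were apart and lower in chronic CS. Every other member had a permutation p of 0.107 or more in that comparison.

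The log2 ratio of Hadhb to Hadha counts was 0.67 ± 0.32 in acute RA (SD, n = 2 libraries), 0.61 ± 0.01 in acute CS (SD, n = 2), 0.41 ± 0.08 in chronic RA (SD, n = 3) and 0.45 ± 0.09 in chronic CS (SD, n = 5). It differed between CS and RA by -0.07 in the acute comparison (exact two-sided permutation p = 1.0, smallest possible 0.333) and by 0.04 in the chronic comparison (exact permutation p = 0.607).

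Across the 10 genes, 1 was called after acute CS, where 3.47% of all genes tested were called. DESeq2 also called 1, against 6.32% of all genes, and a fit of the 4 acute libraries alone called none, against 0.701%. The acute groups did not overlap for 5 of the 10 (Cd36, Fabp4, Cpt1a, Acadl and Acadm), all higher in CS, against 49.9% of all genes in either direction and 27.4% higher, a share that 2 against 2 libraries reach easily. The 5 dehydrogenase and trifunctional genes had acute log2 fold changes between -0.04 and 0.16, each with an interval that included 0 and lay within -0.67 and 0.60. Their summed level was 532 ± 28.2 CPM in acute RA (SD, n = 2) and 561 ± 33.2 CPM in acute CS (SD, n = 2), while that of Cd36 and Fabp4 was 327 ± 10.2 and 1688 ± 666 CPM.

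After chronic CS, none of the 10 was called, and edgeR called 0 of 21440 genes. At an unadjusted p under 0.05 edgeR had 2341 genes (10.9%) and none of the 10, and DESeq2 called 594 genes (1.87%) and none of the 10. The 8 shuttle and oxidation genes all had a negative log2 fold change, from -0.07 for Acadm to -0.31 for Slc25a20, with a median of -0.22, against 48.5% of all genes below 0 and a median over all genes of 0.01, and with scaling by library size alone, which moved the median of all genes up by 0.0858 to 0.1002, 6 of the 8 were below 0 (median -0.13). Groups were apart for 1 of the 10 genes, Hadha, against 5.49% of all genes apart and lower in CS. The 8 genes share their libraries and are not independent. With chronic CS F, M1 and M2 alone the values ran from -0.06 (Cpt2) to -0.48 (Acadvl), and with M3 and M4 alone from -0.15 (Slc25a20) to 0.21 (Acadm), with Acadvl also above 0 at 0.02. Depth moved with this split, since F, M1 and M2 were the shallower libraries, and its part was not tested. The summed level of the 5 dehydrogenase and trifunctional genes was 583 ± 2.14 CPM in chronic RA (SD, n = 3) and 504 ± 73.9 CPM in chronic CS (SD, n = 5). Lymphatic markers were also lower in sum in chronic CS M1 and M2, at 14901 and 15137 CPM, than in the other chronic libraries, at 19934 to 22931 CPM. Alveolar epithelial and mesenchymal markers were higher in sum in every chronic CS library than in chronic RA (median log2 fold changes 2.46 and 1.56). Cardiac muscle markers were lower in sum in every chronic CS library, at 27.8 to 95.5 CPM, than in chronic RA, at 108 to 121 CPM (median log2 fold change -0.83), and the part of these cells was not tested.

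**Figure D3:**
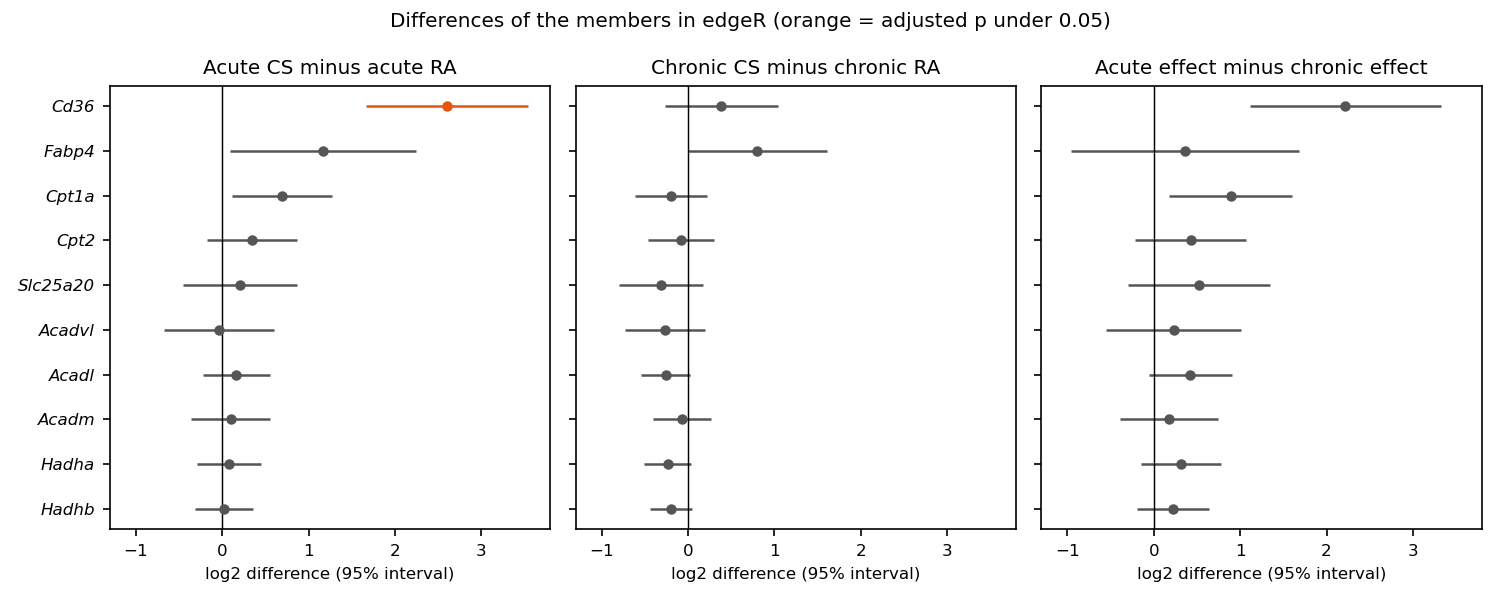
Log2 differences of the 10 genes with 95% intervals from edgeR, for acute CS minus acute RA, chronic CS minus chronic RA, and the difference of these effects. Only Cd36 after acute CS, at 2.60 (orange), had an adjusted p under 0.05, and the 8 lower rows lie left of 0 in the chronic panel (6 of 8 when scaled by library size alone, which moved the median of all genes by 0.0858).

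The difference between the acute and chronic effects was called for none of the 10, against 0.452% of all genes, and 2 of the 10 (Cd36 and Cpt1a) had an unadjusted p under 0.05, against 11.9%. DESeq2 called 1 of the 10, Cd36, against 3.05% of all genes. All 10 values were positive, from 0.17 for Acadm to 2.22 for Cd36, as were 52.3% of all genes, and without acute CS M the value of Fabp4 was -0.64.

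Between the control groups, chronic RA against acute RA, none of the 10 and 0 of all genes were called by edgeR, with 1504 genes (7.01%) and 1 of the 10 at an unadjusted p under 0.05, and DESeq2 called 279 genes (0.876%), none of the 10. That gene was Fabp4, at 34.3 ± 10.5 CPM in chronic RA (SD, n = 3) and 77.5 ± 7.65 CPM in acute RA (SD, n = 2), a log2 fold change of -1.17 (95% interval -2.14 to -0.21, unadjusted p = 0.0211, adjusted p = 0.650 from edgeR). All 3 chronic RA libraries lay below both acute RA libraries, as did 17.0% of all genes. The other 9 had log2 fold changes between -0.16 and 0.39.

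Levels between genes were compared per length, as FPKM on the union of annotated exons, over the 5 RA libraries. Acadl was at 75.4 ± 8.66 FPKM (SD, n = 5 libraries), Cd36 at 65.0 ± 13.6, Acadvl at 28.7 ± 3.17, Acadm at 23.2 ± 1.47, Hadhb at 21.7 ± 0.87, Cpt1a at 20.3 ± 4.69, Cpt2 at 12.2 ± 2.22, Hadha at 11.5 ± 1.51, Fabp4 at 11.5 ± 5.59 and Slc25a20 at 10.4 ± 2.15 FPKM. Each gene lay above the next in 5 of 5 libraries only at 2 steps, from Cd36 to Acadvl and from Cpt1a to Cpt2, and the last 4 could not be ordered. The order depends on the length used. Per length of the principal transcript, a choice made after the values were seen, Acadl stayed first at 78.9 ± 9.06 FPKM, Hadhb was second at 69.8 ± 2.80 and Fabp4 at 57.6 ± 28.0 lay next after Cd36, and Cpt2 was last at 12.3 ± 2.24 FPKM.

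Within the set, the pair most alike over the 12 libraries was Acadl and Hadha, with a Pearson's r of log2 CPM of 0.82, followed by Acadl with Hadhb (0.77) and Cd36 with Cpt1a (0.75). The r was 0.58 for Hadha with Hadhb, and the lowest was -0.35 for Fabp4 with Hadha. These are descriptions over 12 libraries that share depth, composition and exposure. By the same measure over 12429 genes whose log2 CPM averaged 1 or more, the genes most like Cd36 were Acvrl1 (r = 0.98), an endothelial BMP receptor gene, Mfng (0.97), a modifier of Notch receptors, and Kit (0.97), a capillary marker of the blood endothelial list. Most like Fabp4 were Ptgis (0.91), Cytl1 (0.90) and Htra1 (0.90), and most like Cpt1a were Serp1 (0.92), Ipmk (0.88) and Clic4 (0.88). The acute CS libraries were the 2 highest for Acvrl1, at 1411 and 743 CPM against 259 to 456 CPM elsewhere.

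The wider pathway was described with 59 further genes in 10 lists, of which 58 were tested. After acute CS, 5 of the 58 were called, all higher, against 2.75% of all genes tested. They were Lpl, the lipase that frees fatty acids from circulating triglyceride (log2 fold change 3.44, adjusted p = 0.0125), Fabp5, another cytosolic carrier (3.61, adjusted p = 0.0222), Plin2, a coat protein of lipid droplets (1.55, adjusted p = 0.00570), Ucp2, a mitochondrial carrier (2.15, adjusted p = 0.00400), and Lipe, the hormone-sensitive lipase (3.10, adjusted p = 0.0219), all from edgeR. Lpl was at 40.4 and 31.2 CPM in acute RA F and M and at 435 and 340 CPM in acute CS F and M. Plin2 was at 108 and 93.2 CPM in acute RA and at 294 and 295 CPM in acute CS. Lipe was at 3.48 and 3.33 CPM in acute RA and at 46.7 and 11.6 CPM in acute CS, with the female library higher as for Cd36. Fabp5 was at 2.38 and 2.63 CPM in acute RA and at 30.0 and 31.4 CPM in acute CS. Its counts are uncertain because reads can be shared with processed copies in the mouse genome, and the extent of this was not tested. These genes are also expressed in macrophages, whose markers were higher in sum in the same libraries. Blood endothelial, leukocyte and mesenchymal markers were higher in sum there too, and the part of any of these cells was not tested. Of the pathway genes, 10 were called with DESeq2, against 6.32% of all genes. There were 2 without acute RA F, 0 without acute RA M and 2 without acute CS F, where 79, 3 and 175 of all genes were called.

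Lists of enzymes that break fatty acids down held no gene called by edgeR. For the 18 tested catabolic enzymes (carnitine transfer, further mitochondrial beta-oxidation, electron transfer and peroxisomal beta-oxidation) the median acute log2 fold change was 0.23. Of these 18, 13 were above 0. Over all genes the median was 0.04, and 11362 of 21440 were above 0. For example, Acaa2, a mitochondrial thiolase, was at 99.7 ± 15.1 CPM in acute RA (SD, n = 2) and 136 ± 20.3 CPM in acute CS (SD, n = 2), with adjusted p = 0.375 from edgeR. After chronic CS none of the 58 was called by edgeR and 2 were by DESeq2 (Lpl, higher, and Angptl4, lower), against 1.87% of all genes. There 15 of the 18 catabolic enzymes had a value below 0, as did 48.5% of all genes. Their median was -0.22, against 0.01 over all genes, and was close to that of the 8 shuttle and oxidation members in the same libraries. All 7 further mitochondrial enzymes were below 0, also when scaled by library size, though only 4 of 7 with chronic CS M3 and M4 alone. Acads, the short-chain dehydrogenase, was at 14.2 ± 2.85 CPM in chronic RA (SD, n = 3) and 7.78 ± 2.65 CPM in chronic CS (SD, n = 5), a log2 fold change of -0.87 (unadjusted p = 0.0122, adjusted p = 0.357 from edgeR).

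Genes of acyl-CoA synthesis (5), regulators (9) and fatty acid synthesis (6) held no gene called by edgeR in either comparison with RA. Pparg, a nuclear receptor of lipid uptake genes, was at 22.7 ± 1.23 CPM in acute RA (SD, n = 2) and 44.1 ± 0.70 CPM in acute CS (SD, n = 2), with adjusted p = 0.324 from edgeR, and Ppara was near or below 1 CPM on average in every group. The difference of acute and chronic effects was called for Plin2 (1.51, adjusted p = 0.0406) and Ucp2 (1.74, adjusted p = 0.0451) by edgeR. Both effects were larger after acute CS, against 0.401% of all genes called in that direction. Neither gene was called with sex as a covariate, with replicate blocks or without chronic RA M2, where 21, 0 and 0 of all genes were called. Cpt1b, the muscle form of the outer enzyme, did not pass the filter.

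**Figure D4:**
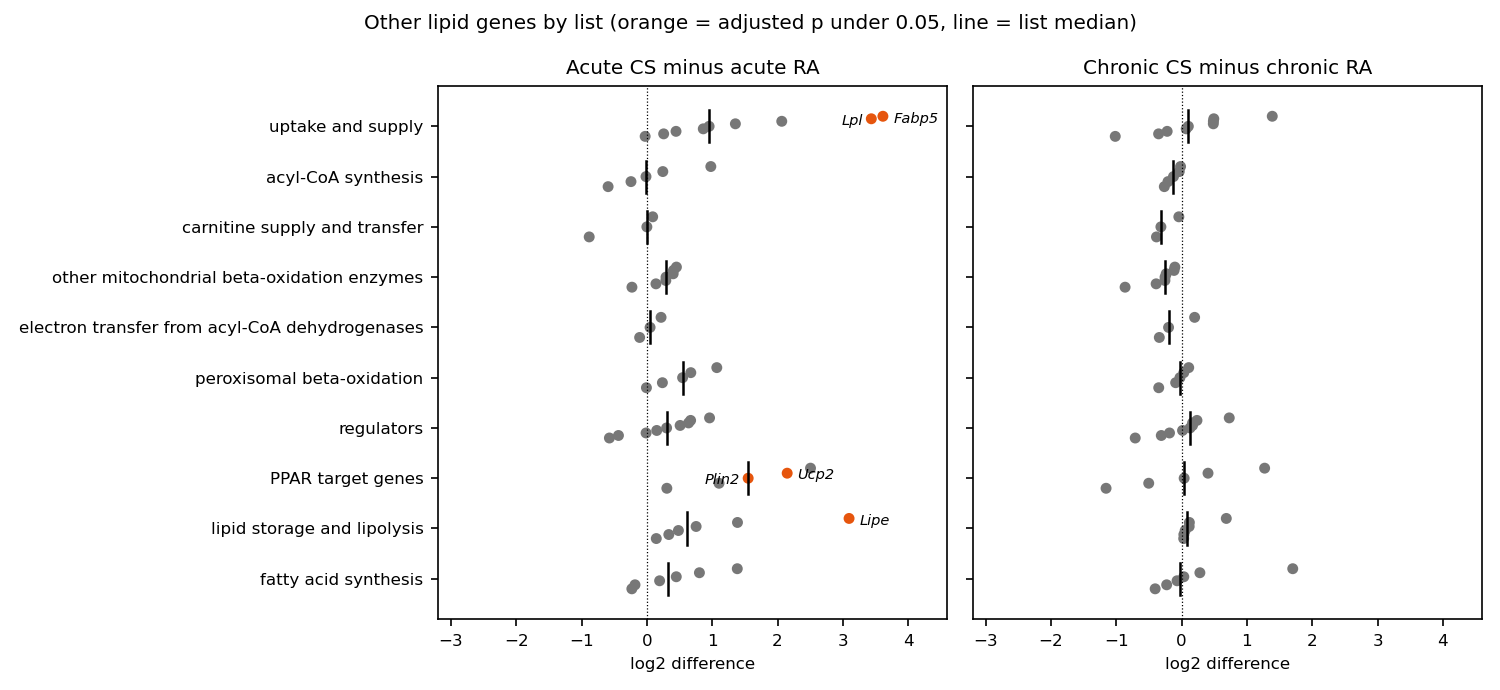
Log2 differences of 58 further genes of lipid uptake, oxidation, storage and synthesis in 10 lists, after acute CS (left) and chronic CS (right), with 1 point per gene and a line at the list median. The 5 orange points are the called genes Lpl, Fabp5, Plin2, Ucp2 and Lipe, and no gene was called in the chronic panel. All 7 further mitochondrial beta-oxidation enzymes lie left of 0 there, as did 48.5% of all genes tested.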

How the data were processed

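Lung LECs sorted from Prox1-EGFP mice were profiled by RNA-seq in 12 libraries of 4 groups. The deposited values are raw counts of reads for each Ensembl gene. The authors checked reads with FastQC 0.11.9, trimmed adapters with Skewer, checked quality further with Minion, aligned them to GRCm38 by STAR and counted genes in its GeneCounts mode, following the DEE2 workflow. The annotation release and strand setting are not given in the sources used here.

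Counts were used without change. Symbols, positions and exon lengths came from GENCODE M21, in which 147 of 52636 identifiers were not found (at most 0.011% of a library's counts). In edgeR 4.0.16 (R 4.3.3), genes were filtered by expression, libraries were normalised by TMM, and all 12 libraries entered 1 quasi-likelihood fit by group. Log2 CPM of single libraries carried a prior count of 2. For single values, two-sided exact permutation tests were run, whose smallest possible p was 0.333 (acute), 0.0357 (chronic) or 0.2 (controls). The labels do not say which mice a library held, so p-values measure the spread between these libraries. A floor of 3 counts was 0.0507 to 0.158 CPM and covers counting error only.

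The 10 genes and the gene lists were chosen with earlier results of these data known. The genes named are the 10 members, called genes of the pathway lists (at most 4 per list), the 3 genes most correlated with Cd36, Fabp4 and Cpt1a, Prox1, and up to 3 markers of a list that moved with a member. Plvap, Emcn, Adipoq, Lep, Acaa2, Acads, Angptl4, Pparg, Ppara and Cpt1b were named beyond this rule, after their values were seen. The alternatives were DESeq2 1.42.0, library size without TMM, no filter, sex as a covariate, replicate blocks, robust estimation, only the groups compared, leaving out each library, chronic CS split by depth, and other gene lengths. The functions were tested on simulated counts.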

Additional observations from a re-analysis of the deposited data

Results flagged for a closer look

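Cd36 in chronic CS M2 stood apart from the other 4 libraries of its group, at 455 CPM against 232 to 283 CPM. Its gap to the next library was 0.773 of the group's whole range, above the 95% critical value of 0.71 for 5 samples. Of 20 such checks on the 10 genes, at the high and the low end of the chronic CS group, this was the only one past the limit, and chance alone is expected to pass about 1 group in 20. The 10 blood endothelial markers other than Plvap and Emcn summed to 1348 CPM in that library against 524 to 819 CPM in the rest of the group. Leukocyte markers (382 CPM against 143 to 354 CPM) and mesenchymal markers (603 CPM against 325 to 563 CPM) were also highest there, and the part of these cells in its Cd36 level was not tested.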

How the results depend on the processing

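After acute CS, 1 of the 10 genes (Cd36) was called with DESeq2, library size, no filter, sex as a covariate, robust estimation and replicate blocks, and 0 when the fit held the 4 acute libraries alone. Leaving out 1 library gave 0 to 1. The Cd36 call was lost without acute RA F, acute RA M or acute CS F, and over the 4 omissions its log2 fold change was 1.94 to 3.06. For the acute minus chronic difference, DESeq2 and no filter each called 1 (Cd36) in place of 0, and leaving out 1 library gave 0 to 1. None of the 10 was called in the chronic or the control comparison under any alternative. The number of all genes called was 745 after acute CS, 2013 with DESeq2, 139 from the 4 acute libraries alone and 3 to 858 on leaving out 1 library (3 without acute RA M, 79 without acute RA F and 175 without acute CS F). For the acute minus chronic difference it was 97, 971 with DESeq2, 191 without the filter, 21 with sex as a covariate and 0 to 263 on leaving out 1 library. For the chronic comparison edgeR called 0, DESeq2 594, no filter 10, chronic CS M3 and M4 alone 16, F, M1 and M2 alone 1, and leaving out 1 library 0 to 4. Between controls edgeR called 0, DESeq2 279, no filter 6 and the RA libraries alone 42.

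Values near 0 changed sign, and except for the shifts given the cause was not tested. Hadhb after acute CS was -0.0080 by library size, which moved the median of all genes by -0.0335 there, more than the size of its main value, and -0.0013 without the filter. After chronic CS, Cpt2 was 0.0061 and Acadm 0.0074 by library size, which moved the median of all genes by 0.0858 there, more than the size of either main value, and with M3 and M4 alone Acadvl was 0.0186 and Acadm 0.2115. Between controls, Hadhb was -0.0783 by library size, which moved the median of all genes by -0.1045 in that comparison (and by -0.1181 for the acute minus chronic difference), and Cpt1a was -0.0206 with replicate blocks. On leaving out 1 library, acute values ran from -0.0854 to 0.5405 for Slc25a20, -0.2124 to 0.1286 for Acadvl, -0.0840 to 0.2326 for Hadha and -0.0679 to 0.1147 for Hadhb. Chronic values ran from -0.3651 to 0.0687 for Cpt1a, -0.1362 to 0.0262 for Cpt2 and -0.1609 to 0.0150 for Acadm. Control values ran from -0.4017 to 0.0277 for Cd36, -0.0918 to 0.3420 for Cpt1a, -0.3593 to 0.2840 for Slc25a20, -0.0546 to 0.3038 for Acadvl and -0.0358 to 0.0777 for Hadhb. The acute minus chronic difference of Fabp4 ran from -0.6385 (without acute CS M) to 0.9494.

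Libraries with the same sex and number were fitted as replicate blocks. Their deviations from group means correlated at -0.042 to 0.069. Both acute pairs gave 0.069, because deviations mirror each other in groups of 2 libraries. The labels give these libraries only a shared sex and, in the chronic groups, a number. Whether they share anything else was not tested. With the block, 308 genes were called after acute CS and 0 for the acute minus chronic difference. Cd36 kept its acute call (2.50, adjusted p = 0.0382 from edgeR), and no call of the 10 genes changed.

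Levels per length moved with the length used. In RA, the longest transcript gave 36.0 FPKM for Cpt1a, 18.2 for Slc25a20, 35.5 for Acadvl, 44.3 for Acadm, 25.1 for Hadha and 32.6 for Hadhb. The principal transcript gave 57.6 FPKM for Fabp4, 28.2 for Slc25a20 and 69.8 for Hadhb, and the same as the longest for the others named.

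The acute groups hold 2 libraries each, and an exact test of a single value there cannot reach 0.05. Libraries of chronic CS F, M1 and M2 are the shallowest, yet each of the 10 genes had at least 561 counts in every library. Each was thus detected in every library, and the part of depth in their levels was not tested.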
